A study of Gloeophyllum trabeum and Trametes versicolor with 18 samples.

Results

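The comparison described here is the response of the white-rot fungus *Trametes versicolor* to high-melanin fungal necromass, measured against glucose. It rests on the 3 high-melanin and the 3 glucose libraries of this fungus, chosen by their labels, out of 18 libraries in the series, and it covers all 15606 transcripts of the deposited tables. Strain A1-ATF was grown in liquid Highley's medium for 7 days. The glucose group received glucose at 1% (w/v) as its added carbon source, and the high-melanin group received dead fungal biomass rich in melanin at 0.45%. A further 3 libraries, from low-melanin necromass at 0.45% (w/v), are used to estimate the spread and are set beside the genes described in detail. The carbon source and its concentration differ together, so their effects cannot be told apart. The labels name no fungus as the source of the necromass. Nor do they state if replicate libraries are separate cultures, and each p-value here rests on library-to-library spread alone, some or all of which may be technical.

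White-rot fungi secrete oxidative and hydrolytic enzymes with which they break down lignin and the polysaccharides of plant cell walls. Fungal necromass offers another set of polymers, chiefly chitin, glucans and proteins of dead hyphae, and melanin is a dark, cross-linked pigment of the hyphal wall that resists decay. Glucose, in contrast, is taken up directly, and in many fungi it represses genes for the use of other carbon sources. Transcripts carry the identifiers of the deposited tables, which are not paired with gene functions or sequences, so genes are described here by level, change, length and identifier.

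Depth ranged from 18301303 to 26514709 estimated counts in the 6 libraries, and 13340 transcripts passed the filter on low counts and were tested. Of the other 2266, 1604 had no count in any of the 9 *T. versicolor* libraries. The first principal component of the 6 libraries held 89.1% of the variance and set the carbon sources apart. The second held 6.53%, and glucose replicate 1 lay farthest out on it. Its log2 CPM (counts per 1000000 counts of the library) correlated across genes with the other glucose libraries at 0.977 and 0.982, against 0.992 between those and 0.995 to 0.997 among the high-melanin libraries. Glucose libraries also varied more: for the 8700 genes with a mean of at least 10 CPM, the median coefficient of variation was 12.9% on glucose and 7.29% on high-melanin necromass. For the same genes the median difference on the log2 scale was 0.16 to 0.26 between glucose libraries, 0.095 to 0.13 between high-melanin libraries, and 0.39 to 0.47 between libraries of the different carbon sources.

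The response was broad and nearly even in direction. In edgeR's quasi-likelihood test, at a Benjamini-Hochberg adjusted p under 0.05, 7273 genes differed, or 54.5% of those tested. Of these, 3581 were higher on high-melanin necromass (26.8%) and 3692 were lower (27.7%). Most of the changes were modest. The median change was 1.73-fold among the genes called higher and 1.83-fold among those called lower, and 62.1% and 58.3% of them, in the same order, changed by less than 2-fold. A change of at least 2-fold was called in 1358 higher genes (10.2% of those tested) and 1541 lower genes (11.6%). A test against a 2-fold change, in place of no change, called 862 higher and 767 lower. Over all genes tested, the log2 fold change ran from -0.50 to 0.43 between the 25th and the 75th percentile and from -1.59 to 1.73 between the 5th and the 95th. CPM values of the carbon sources did not overlap for 7015 of the 7273 called genes (96.5%), against 7982 of all 13340 genes tested (59.8%). The even split holds for the scaling used, the trimmed mean of M values (TMM). Upper-quartile scaling shifted the median of all log2 fold changes from -0.01 to -0.16, and 36.7% of calls were then higher against 49.2% with TMM. In cultures measured whole, a change in the transcripts of each cell and a change in the share of cells that make them cannot be told apart.

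**Figure D1:**
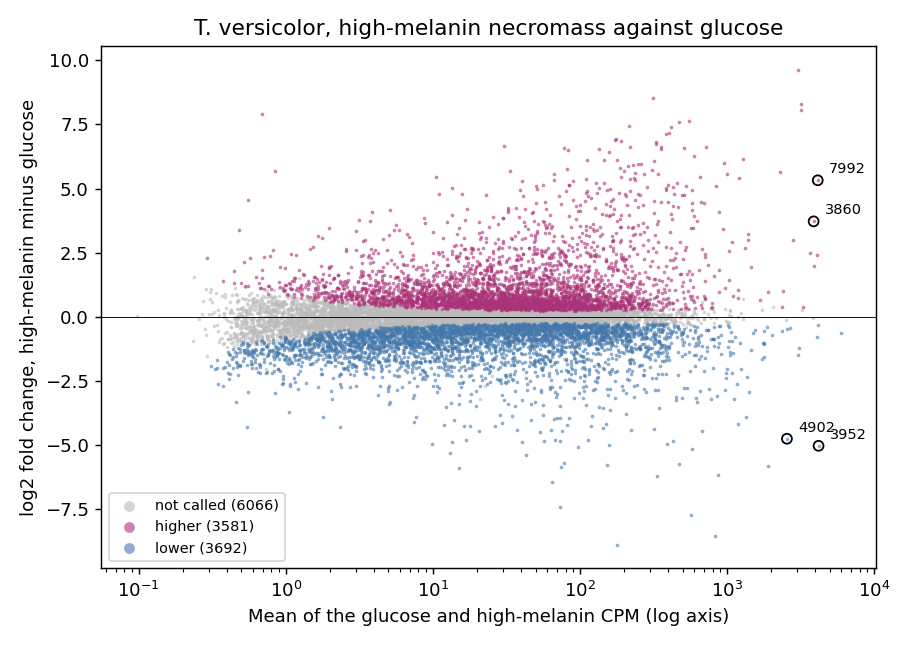
Each point is a gene, placed by the mean of its glucose and high-melanin CPM (log axis) and its log2 fold change, with 3581 genes called higher and 3692 called lower. Rings mark the 4 genes named in the text, which lie at the high end of the level axis, with changes of 5.32 and 3.72 upward and -5.03 and -4.76 downward. The 1 gene at 0 CPM on both carbon sources is not drawn.

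Among the strongest changes, increases outnumbered decreases, by a margin that depended on the scaling at 4-fold. Called changes of 4-fold or more numbered 534 upward and 360 downward, and those of 16-fold or more 145 upward and 53 downward. With upper-quartile scaling the numbers were 488 and 459 at 4-fold and 136 and 62 at 16-fold, and with library size alone 501 and 418, and 138 and 60. The 145 genes had a median of 8.16 CPM on glucose and 367 CPM on high-melanin necromass, and 22 of them reached 1000 CPM or more there. Together they took 0.245% ± 0.0073 of all counts on glucose and 10.1% ± 0.75 on high-melanin necromass (SD, n = 3). The 53 genes in the other direction had a median of 146 CPM on glucose and 4.7 CPM on high-melanin necromass, and their share of counts went from 3.78% ± 0.15 to 0.104% ± 0.0025 (SD, n = 3). Of the 534 genes at least 4-fold higher, 26 stood at 100 CPM or more on glucose and 312 on high-melanin necromass. Of the 360 at least 4-fold lower, 156 stood at that level on glucose and 31 on high-melanin necromass. The classes were cut from this contrast itself, so their shares and medians describe its size and are no further test.

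**Figure D2:**
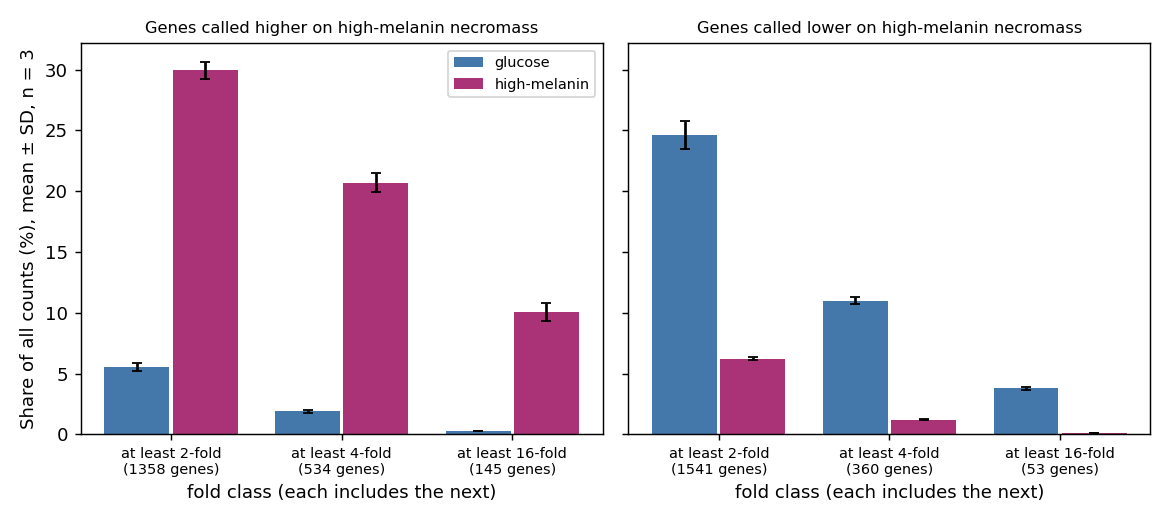
Bars give the share of all counts, as the mean of 3 libraries with the SD as error bar, held by genes called higher (left) or lower (right) by at least 2-fold, 4-fold and 16-fold. The 145 genes at least 16-fold higher went from 0.245% to 10.1% of counts, and the 53 at least 16-fold lower went from 3.78% to 0.104%.

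On low-melanin necromass the same classes had medians between those of glucose and high-melanin necromass. The 145 genes had a median of 104 CPM there, and the 53 genes 5.4 CPM. The comparisons of the necromass types with glucose share the 3 glucose libraries. The median log2 fold change of the 145 genes was 5.05 on high-melanin and 3.5 on low-melanin necromass, and that of the 53 genes was -4.82 and -4.58. The genes were picked on the first of these values, so the difference between the pairs of medians carries no test.

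No gene went from silence to a substantial level, where silence is at most 3 counts in each glucose library and a substantial level is a called increase to a mean of 10 CPM or more. The levels alone fix that count at 0, whatever the test, as no tested gene so silent on glucose exceeded 1.66 CPM on high-melanin necromass. Of the 4 tested genes with at most 3 counts in each glucose library, 3 were called higher. Of the 3018 genes called higher with at least 10 CPM on high-melanin necromass, 5 had a mean under 1 CPM on glucose, and none of those 5 exceeded 60.1 CPM. Of the 2586 genes called lower with at least 10 CPM on glucose, 8 fell under 1 CPM on high-melanin necromass. No gene was called lower from 10 CPM or more on glucose to at most 3 counts in each high-melanin library. The levels fix this too, as the highest glucose level of any tested gene with so few high-melanin counts was 1.04 CPM.

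The shift in transcript mass was concentrated in a small part of the called genes. Summed over genes called higher, 113 of 3581 made 50% of the gain in CPM, and 122 of 3692 made 50% of the loss among genes called lower. Levels themselves are concentrated. Of all 15606 transcripts, 732 to 805 held 50% of the counts in the glucose libraries and 774 to 815 in the high-melanin libraries. How much of the concentration of the shift follows from that was not tested. The 10 genes with the greatest gain rose together from 0.607% ± 0.049 of counts on glucose to 6.4% ± 0.17 on high-melanin necromass, and stood at 4.01% ± 0.14 on low-melanin necromass (SD, n = 3). On high-melanin necromass these 10 lay between 4476 and 8106 CPM, while on glucose they ranged from 7.58 to 1605 CPM, so they came from very different starting levels. Their log2 fold changes ran from 1.96 to 9.64, with adjusted p of 6.91e-05 or less in edgeR's quasi-likelihood test. The 10 genes with the greatest loss went from 4.95% ± 0.43 of counts on glucose to 1.24% ± 0.061, and stood at 2.27% ± 0.070 on low-melanin necromass (SD, n = 3). Their log2 fold changes ran from -5.82 to -0.65, and 2 of them shared reads with similar transcripts, so their levels are uncertain.

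The genes named by identifier were picked among called genes whose glucose and high-melanin libraries do not overlap. Their separation and call were thus conditions of the choice and are no further test. The gene with the greatest gain was jgi.p|Traver1|7992, a transcript of 1506 bases. It stood at 342, 100.1 and 166 CPM in glucose replicates 1 to 3 and at 8050, 7323 and 8944 CPM in the high-melanin replicates. Every high-melanin library was far above every glucose library, and glucose replicate 1 was the highest of its group. The mean rose from 203 ± 125 to 8106 ± 812 CPM (SD, n = 3), and the fitted change was 5.32 ± 0.42 on the log2 scale (SE, adjusted p = 3.11e-06 in edgeR's quasi-likelihood test), or 40-fold. Without glucose replicate 1 the log2 fold change was 5.93, and with mean fragment length as a covariate 6.24. In TPM, which divides by transcript length and so allows ranks between genes, it moved from rank 1192 to 3045 in the glucose libraries to rank 21 to 27 in the high-melanin libraries.

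Gene jgi.p|Traver1|3860, a transcript of 786 bases, made the second greatest gain. Its glucose libraries stood at 406, 634 and 609 CPM and its high-melanin libraries at 7931, 7355 and 6439 CPM. The groups did not overlap, and here glucose replicate 1 was the lowest of its group. The mean rose from 550 ± 125 to 7242 ± 752 CPM (SD, n = 3), which is a fitted log2 increase of 3.72 ± 0.19 (SE, adjusted p = 5e-09), or 13.2-fold. It was already among the better expressed genes on glucose, at rank 240 to 383 by TPM, and stood at rank 15 in each high-melanin library.

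The greatest loss was that of jgi.p|Traver1|3952, a transcript of 564 bases. It was at 6136, 9175 and 9184 CPM on glucose and at 272, 222 and 253 CPM on high-melanin necromass, so the lowest glucose library was well above the highest high-melanin library. The mean went from 8165 ± 1757 to 249 ± 25 CPM (SD, n = 3), with a fitted log2 change of -5.03 ± 0.19 (SE, adjusted p = 4.31e-10), or 32.8-fold lower. By TPM it ranked between 5 and 7 in the glucose libraries and between 335 and 416 in the high-melanin libraries.

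Gene jgi.p|Traver1|4902, of 387 bases, followed. It was at 4766, 5165 and 4906 CPM on glucose and at 186, 180 and 182 CPM on high-melanin necromass. The groups were far apart, and libraries within each of them differed little. The mean went from 4945 ± 203 to 183 ± 3.3 CPM (SD, n = 3), and its log2 change was -4.76 ± 0.13 (SE, adjusted p = 4.14e-11), or 27.1-fold lower. Its TPM rank was 2 to 5 on glucose and 210 to 240 on high-melanin necromass. None of the 4 genes shared reads with similar transcripts.

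**Figure D3:**
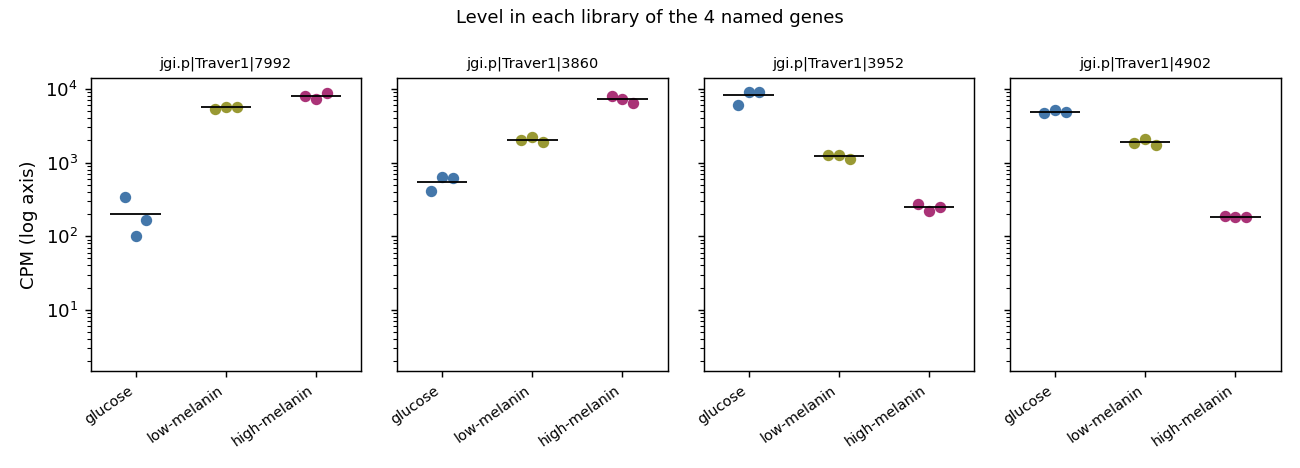
Points give the CPM (log axis) of each named gene in every glucose, low-melanin and high-melanin library, and the bar their mean. For each gene the low-melanin libraries lie between the other groups without touching them, and for jgi.p|Traver1|7992 they lie close to the high-melanin libraries.

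Low-melanin necromass moved the 4 genes in the same direction as high-melanin necromass. Each fitted change was smaller, and for 3 of the genes the difference between the necromass types passed the test. Gene jgi.p|Traver1|7992 was at 5622 ± 201 CPM there (SD, n = 3), and its difference between the necromass types, 0.53 ± 0.35 on the log2 scale (SE), did not pass the test (adjusted p = 0.231). Without glucose replicate 1, which enters that value through the shared spread and scaling, the adjusted p was 0.00706, the lowest among all settings tried. With mean fragment length as a covariate it was 0.836, the highest among settings that tested against no change. The test against a 2-fold change did not call this difference either. On low-melanin necromass jgi.p|Traver1|3860 reached 2056 ± 177 CPM, and high-melanin necromass exceeded it by 1.82 ± 0.17 on the log2 scale (SE, adjusted p = 2.59e-06). For jgi.p|Traver1|3952 the low-melanin level was 1219 ± 86 CPM, and the further log2 change to high-melanin necromass was -2.29 ± 0.17 (SE, adjusted p = 2.69e-07). That of jgi.p|Traver1|4902 was 1878 ± 167 CPM, followed by a log2 change of -3.36 ± 0.13 (SE, adjusted p = 1.29e-09). Against glucose, the 4 log2 fold changes on low-melanin necromass were 4.79, 1.9, -2.74 and -1.4 in the order given, each with an adjusted p of 4.43e-06 or less in edgeR's quasi-likelihood test. Over all genes, 54.1% differed between the necromass types and 62.8% between low-melanin necromass and glucose.

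The most abundant transcripts changed places. By mean TPM, 4 of the 10 highest genes, 57 of the 100 highest and 711 of the 1000 highest were the same on glucose and on high-melanin necromass. Of the 100 highest on glucose, 60 were called lower on high-melanin necromass, 37 of them by at least 2-fold, 11 were called higher and 29 were not called. Their median log2 fold change was -0.53. Of the 100 highest on high-melanin necromass, 50 were called higher, 33 of them by at least 2-fold, 19 were called lower and 31 were not called. Their median log2 fold change was 0.36, against -0.01 over all genes tested. Each list was ranked on libraries that also enter the difference, so these counts are a description.

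The same holds for genes sorted by level. Of the 93 genes at 1000 CPM or more on glucose, 72 were called lower (77.4%) and 8 higher. When genes were sorted by their mean over all 9 libraries instead, the 92 genes at that level held 38 called lower and 36 called higher. At that level the excess of lower calls was thus present with the first sorting and absent with the second, which was chosen after seeing the data. With the second sorting, lower calls outnumbered higher calls under 1 CPM (183 against 32) and from 1 to under 10 CPM (1169 against 675). Higher calls outnumbered lower calls from 10 to under 100 CPM (1999 against 1592) and from 100 to under 1000 CPM (839 against 710). The share of genes called rose with level under either sorting. By the mean over 9 libraries, 28.7% of the 750 genes under 1 CPM were called, 57.5% of the 6250 genes from 10 to under 100 CPM, and 80.4% of the 92 genes at 1000 CPM or more. The total number of counts was similarly spread on the carbon sources, with 50% of them held by 732 to 805 genes in the glucose libraries and by 774 to 815 genes in the high-melanin libraries.

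Shorter transcripts were more often lower. Nearly all transcript lengths (99.6%) are multiples of 3, so the lengths are coding lengths. Among the 3338 genes of the shortest length quartile, 45 to 714 bases, 565 were called lower by at least 2-fold (16.9%) and 283 higher (8.48%). Among the 3332 genes of the longest quartile, 1740 to 15144 bases, 197 were lower (5.91%) and 317 higher (9.51%). The median log2 fold change rose over the quartiles from -0.13 through -0.09 and -0.01 to 0.13. The median length was 684 bases for the 53 genes at least 16-fold lower and 1233 bases for the 145 genes at least 16-fold higher. Among better expressed genes the order held for the share lower and for the median, but not for the share higher. Of those with a mean of at least 10 CPM over the 9 libraries, 13.3% of the shortest quartile and 5.07% of the longest were lower by at least 2-fold. The shares at least 2-fold higher were 10.4% and 9.98%, and the median log2 fold change ran from -0.01 to 0.16.

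Fragment length also differed between the groups, and it enters the effective length of short transcripts most. The mean fragment length, taken from the deposited effective lengths, was 345, 292 and 310 bases in glucose replicates 1 to 3 and 268, 294 and 277 bases in the high-melanin libraries, with a slight overlap. With a per-gene offset for effective length, an alternative chosen after seeing the data, the median log2 fold change was -0.21 in the shortest quartile and 0.20 in the longest. With mean fragment length as a covariate it was -0.08 and 0.12. With upper-quartile scaling it was -0.28 and -0.02, around a median of -0.16 over all genes, so the longest quartile again lay above all genes and the shortest below.

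**Figure D4:**
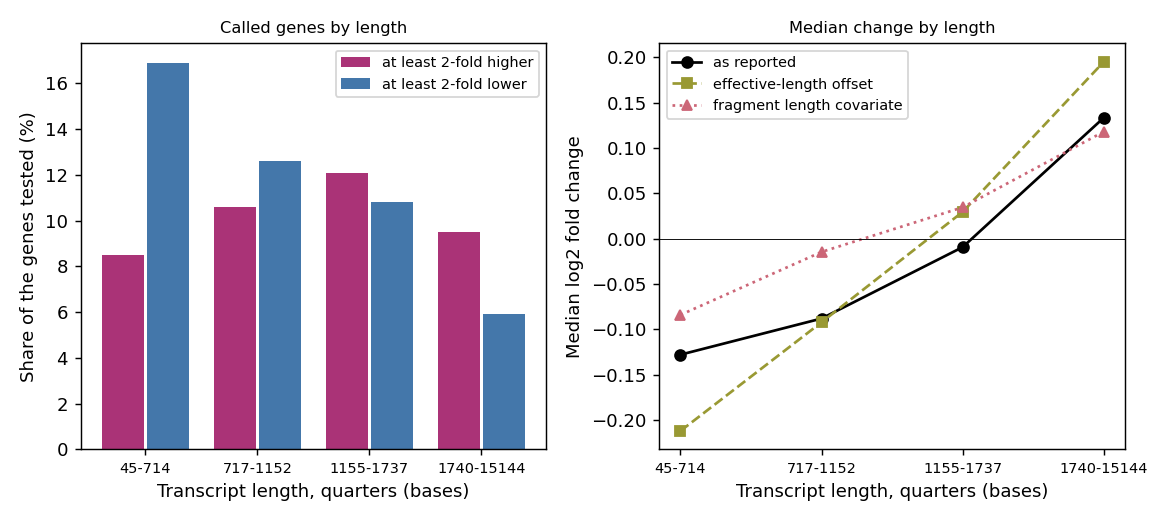
Bars on the left give the percentage of genes tested in each length quartile that were at least 2-fold higher or lower on high-melanin necromass, with lower genes going from 16.9% to 5.91% as length increases. Lines on the right give the median log2 fold change (high-melanin minus glucose) per quartile as reported, with the effective-length offset and with the fragment length covariate, and each rises with length.

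Genes with consecutive identifier numbers tended to change together. Whether identifier order follows position in the genome is not given in the sources used here, so nearness means nearness in number. Of 493 genes at least 4-fold higher whose next identifier was also tested, 70 (14.2%) were followed by another such gene, against 3.97% over all pairs. Of 327 genes at least 4-fold lower, 44 (13.5%) were followed by another, against 2.67% over all pairs. A switch between at least 4-fold higher and at least 4-fold lower occurred in 14 of the 12413 pairs. At the larger distances tried it ranged from 15 of 11035 pairs (distance 500) to 30 of 11395 pairs (distance 100). At a distance of 2 identifiers the shares were 7.85% for higher genes and 2.48% for lower genes, against 4.01% and 2.66% over all pairs. For lower genes the excess was thus already absent at that distance. At a distance of 5 they were 7.13% for higher genes and 3.75% for lower genes (12 pairs), against 3.96% and 2.68%. At a distance of 20 they were 3.88% and 3.65%, against 3.99% and 2.71%. Without the transcripts that share reads with similar ones, an alternative added after seeing the data, the shares of next identifiers were 13.9% and 12.5%.

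Genes at least 4-fold higher formed 9 runs of 3 or more consecutive identifiers, which held 30 genes, and genes at least 4-fold lower formed 2 such runs with 6 genes. The longest run held 5 genes, all higher, and was singled out after its values were seen. Its transcripts were alike in length, at 549, 468, 477, 462 and 465 bases in order of their numbers, and none shared reads with similar transcripts. On glucose their means were 9.06 ± 4.4, 6.74 ± 2.5, 2.87 ± 0.72, 1.61 ± 0.45 and 20.3 ± 5.8 CPM (SD, n = 3). On high-melanin necromass they were 207 ± 40, 142 ± 15, 350 ± 60, 154 ± 14 and 6357 ± 1603 CPM (SD, n = 3). For each of the 5, every high-melanin library was above every glucose library, as for all 534 genes at least 4-fold higher. Over all genes tested, 59.8% had no overlap between these groups. The last gene of the run was far more abundant than the others, also per length, at 14805 TPM against 328 to 781 TPM. The log2 fold changes were 4.51, 4.40, 6.92, 6.59 and 8.29, with adjusted p from 3.69e-11 to 3.08e-06 in edgeR's quasi-likelihood test.

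The run stood out from low-melanin necromass as well. There the 5 genes were at 3.02, 1.99, 3.75, 1.55 and 15.6 CPM, near or below their glucose levels. High-melanin necromass exceeded low-melanin necromass by log2 fold changes of 6.1, 6.17, 6.53, 6.62 and 8.67 in the same order, with adjusted p from 1.39e-10 to 1.06e-06 in edgeR's quasi-likelihood test. Between low-melanin necromass and glucose, the first and second genes were lower on the necromass, at -1.58 and -1.76 on the log2 scale (adjusted p = 0.00399 and 6.83e-05). The other 3 genes did not pass that test, with adjusted p of 0.172, 0.914 and 0.169.

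**Figure D5:**
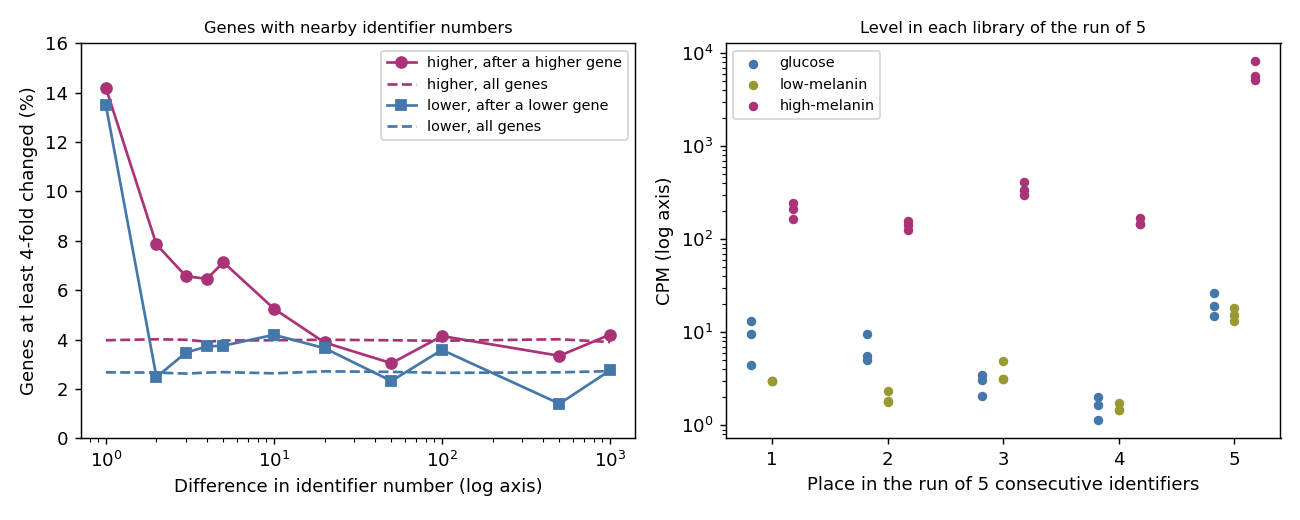
The left panel gives the percentage of genes at least 4-fold higher or lower among those whose identifier number lies a given distance (log axis) after a gene of the same kind, with the percentage over all pairs as a dashed line; at distance 1 the shares are 14.2% and 13.5%. The right panel gives the CPM (log axis) of the 5 genes of the longest run in each of the 9 libraries, with all high-melanin libraries above all others.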

How the data were processed

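RNA was sequenced from *T. versicolor* cultures. The submitters' processing notes name kallisto 0.51.1 and also DESeq2 1.48.2, without their roles. The transcript set, genome build and strand setting are not given in the sources used here. The deposited tables hold an estimated count for each transcript, in which reads shared by similar transcripts are split, and the authors' TPM, normalised to effective length and to the library total. TPM served for ranks alone. Estimated counts were rounded, filtered with filterByExpr (at least 99.9854% of each library's counts kept) and scaled with TMM. All 9 libraries were fitted with carbon source as the single term in edgeR 4.0.16 (glmQLFit and glmQLFTest, robust) in R 4.3.3, and Benjamini-Hochberg adjustment covered all 13340 genes. Each standard error is the absolute log2 fold change over the root of the F statistic. CPM use TMM-scaled library sizes. The 972 transcripts taken to share reads have, in at least 1 library, an estimate that misses a whole number by more than 0.01. Mean fragment length is length minus effective length plus 1, over transcripts above 2000 bases.

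The named genes are the 2 each way with the largest difference in mean CPM among called genes whose libraries do not overlap. The classes and rules were chosen with earlier results of these data known. Lists by gene function could not be made, as no table pairs the identifiers with functions, and the series' gene table covers the other fungus. No libraries of a group agreed within sampling noise (lowest chi-square per degree of freedom 17.4). The test was checked on simulated counts in which a small part of the genes changed. That check does not cover a response as broad as this. Alternatives were other scalings, filters, tests (DESeq2 1.42.0, limma 3.58.1), sample sets and covariates.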

Additional observations from a re-analysis of the deposited data

How the results depend on the processing

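Under 20 alternatives, the counts of genes higher and lower stayed within 1.5 times the reported values except in the test against a 2-fold change (glmTreat), which called 862 higher and 767 lower. The counts at 4-fold (482 to 605 higher, 321 to 459 lower) and 16-fold (129 to 154 higher, 44 to 62 lower) stayed within that range under all 20. The number of genes silent on glucose and called higher with at least 10 CPM on high-melanin necromass was 0 in each. Where the same genes and libraries were tested, the levels fix that number whatever the test. Fold changes of the 4 named genes and of the 5 consecutive genes between high-melanin necromass and glucose kept their direction and their call under all 20 alternatives. The highest adjusted p was 0.000264.

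Library size alone gave 40.8% of called genes as higher, with a median log2 fold change of -0.11, and length-quartile medians of -0.23 and 0.03 at the ends. The share of next identifiers called higher after a gene called higher was 35.4%, against 27% over all pairs. It was 29.7% with upper-quartile scaling and 17% in the test against 2-fold. These settings called fewer genes higher (2707 and 862), so their shares cannot be set against the 27%. With the replicate number as a block, 3441 genes were higher and 3528 lower. Same-numbered glucose and high-melanin libraries deviated from their group means with correlations of -0.04 to -0.03, and 0 of 6 libraries correlated best with their own number, so the numbers were not taken to pair the samples. The block changed no call between high-melanin necromass and glucose on those 9 genes, nor between the necromass types on the 4 named genes, and the other comparisons of these genes were not run with it. With 3 libraries a group and a median standard error of 0.15 on the log2 scale, genes under 1 CPM were called least often.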
